A study of Mus musculus with 9 samples.

Results

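The genes described here make, load and use microRNAs (miRs). They were chosen by name rather than by a measured value, but with earlier results of these data known. They are *Drosha* and *Dgcr8*, *Xpo5*, *Dicer1*, *Ago1*, *Ago2* and *Ago3*, and *Tnrc6a*, *Tnrc6b* and *Tnrc6c*, 10 of the 37725 genes in the single-cell matrix, and all 10 were counted. Their levels were compared between cell types of the mouse retina and retinal pigment epithelium (RPE), and between 4 control and 5 double-knockout (dKO) mice. All 9 mice carry the inducible Cre and both floxed miR alleles by their labels (RPE65-ERT2-Cre.miR-211fl.miR-204fl) and the time label 6 months, which by the study's text is counted from induction, and by that text they are homozygous for the less active methionine variant of RPE65. Injections were given on 5 days from postnatal day 28. Control mice (S01 to S04) received the corn oil vehicle, and dKO mice (S05 to S09) received tamoxifen at 75 mg/kg, which switches on the Cre. Because the RPE65 promoter drives the Cre, deletion is aimed at the RPE. By these labels control mice received no tamoxifen, so the agent and the deletion cannot be told apart. The study's text describes its controls in general as Cre-negative animals given tamoxifen, and the labels were followed here.

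The genes follow the path of a miR. In the nucleus, the RNase DROSHA and its RNA-binding partner DGCR8 form the microprocessor, which cuts the hairpin out of the primary transcript. Exportin-5, encoded by *Xpo5*, carries the hairpin to the cytoplasm, and DICER1 cuts it to a short duplex. Argonaute proteins hold a strand of the duplex and use its seed to find target mRNAs. AGO2 is the member with well-known slicing activity. The GW182 proteins, encoded by *Tnrc6a*, *Tnrc6b* and *Tnrc6c*, bind Argonaute and recruit the deadenylases that shorten the tail of the target. Loss of DICER1 or DGCR8 is known to damage the RPE and photoreceptors.

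The deleted miRs share a seed, and the mature sequences are shown because every site printed further on is read from that seed. They were taken from RefSeq on GRCm38.p6 and are written 5′ to 3′ with the seed, bases 2 to 8, in capitals.
miR-204-5p: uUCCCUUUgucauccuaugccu
miR-211-5p: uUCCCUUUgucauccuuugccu
From miR-204 to miR-211 the only difference is A17U, counted from the 5′ end. The matrix lists neither *Mir204* nor *Mir211*, and removal of the miRs could not be checked in these counts.

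Matches to the complement of this seed were searched on the transcribed strand of the annotated 3′ UTRs in the GRCm39 genome with GENCODE M39. The motifs were AAAGGGAA, its first 7 bases alone and its last 7 bases alone, and a stretch holding the longest motif was counted once. At least 1 match was present in 7 of the 10 genes, beside 31.0% of 21009 genes with a 3′ UTR and 43.0% of the 13872 genes whose longest 3′ UTR has at least 855 bases, the length of the shortest in the 10. That set is not matched in length to the 10 genes, whose 3′ UTRs ran up to 12742 bases (*Ago3*). A longer 3′ UTR has more room for a match, and an excess in the 10 genes was not tested. *Tnrc6b* held 5 matches, *Ago1*, *Ago3*, *Dicer1* and *Tnrc6c* held 2 each, and *Dgcr8* and *Tnrc6a* held 1 each. The 3′ UTRs of *Drosha*, *Xpo5* and *Ago2* held 0 matches, although that of *Ago2* is 11064 bases long. The 6 stretches that follow carry the longest motif, which 5 of the genes hold. *Ago1* and *Tnrc6b* hold it at 2 positions each, and the second of *Tnrc6b*, in a separate 3′ UTR of 120 bases, is not shown. The motif is in capitals, and the strand is that of the gene.
Ago1 (chr4:126329238-126329245, minus): ttccttaaAAAGGGAAatcagaaa
Ago1 (chr4:126329299-126329306, minus): agcccaggAAAGGGAAtggaaaga
Ago3 (chr4:126237964-126237971, minus): cgtagtttAAAGGGAAcaaagtaa
Dgcr8 (chr16:18071812-18071819, minus): actgtccaAAAGGGAAtggctggt
Dicer1 (chr12:104654215-104654222, minus): ctgtaaatAAAGGGAAatgactaa
Tnrc6b (chr15:80816466-80816473, plus): ataagcttAAAGGGAAaaaaacta
A match describes these letters and is not a measured site.

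Cells were assigned to a type when at least 3 of its 6 marker genes had a unique molecular identifier (UMI, 1 per captured RNA molecule) and the markers together passed a share of the cell's UMIs. Of 31089 cells, 27025 fell in exactly 1 of 13 gates, 1001 in several and 3063 in none. The names below stand for cells gated in this way, so rods are rod-like cells, and so on. The 10 leading genes of each gate held 0 markers of another type, and of its own markers they held 0 in the rod bipolar and microglia gates, 1 in the endothelial gate and 2 to 6 in the others. Rods made up 16042 cells and RPE 353, of which 165 came from control and 188 from dKO mice. UMIs were summed over the cells of a type in each mouse, and levels are given as CPM, the gene's UMIs scaled to the same fixed total in every mouse and type. A mouse entered with at least 10 cells, which left 3 control and 4 dKO mice for RPE. Control mouse S04 had 0 RPE cells among 2711, which allows a share of up to 0.111%. Among the 9 mice 0 cell barcodes were shared. The mice also shared 0 wells in the first round of barcoding, so this follows from the layout and is no separate check.

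Mice S04, S05 and S07 stood apart from the other 6. Rods made up 71.5 to 86.7% of their cells against 33.0 to 46.4%, and their median UMIs per cell were 4775 to 5412.5 against 8118 to 10340. *Xist* lay at 35.4 to 51.8 CPM in these 3 and at 1377 to 1570 CPM in the other 6, while the Y-linked genes lay at 404 to 424 CPM against 4.25 to 4.96. Mice S06 and S07 have the same animal number in the labels but differ in these genes, and they were treated as different mice. Totals ran from 15079143 to 66528160 UMIs per mouse.

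The first question was where in the retina each gene is expressed most. Each type was compared with the unweighted mean of the other 12 in 1 edgeR quasi-likelihood fit with the mouse as a block, and adjusted p-values are from this test with Benjamini-Hochberg adjustment over 16197 genes. None of the 10 genes is a gate marker. Of the 130 pairs of gene and type, 46 were higher and 41 lower at an adjusted p below 0.05. The genes were not raised in 1 common type: photoreceptors led for *Dgcr8*, *Ago3* and *Tnrc6b*, amacrine cells for *Drosha*, *Xpo5*, *Dicer1*, *Ago1* and *Tnrc6c*, and horizontal cells for *Tnrc6a*, by mean CPM. *Ago2* had its highest mean CPM in microglia and its largest fitted difference in horizontal cells.

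**Figure D1:**
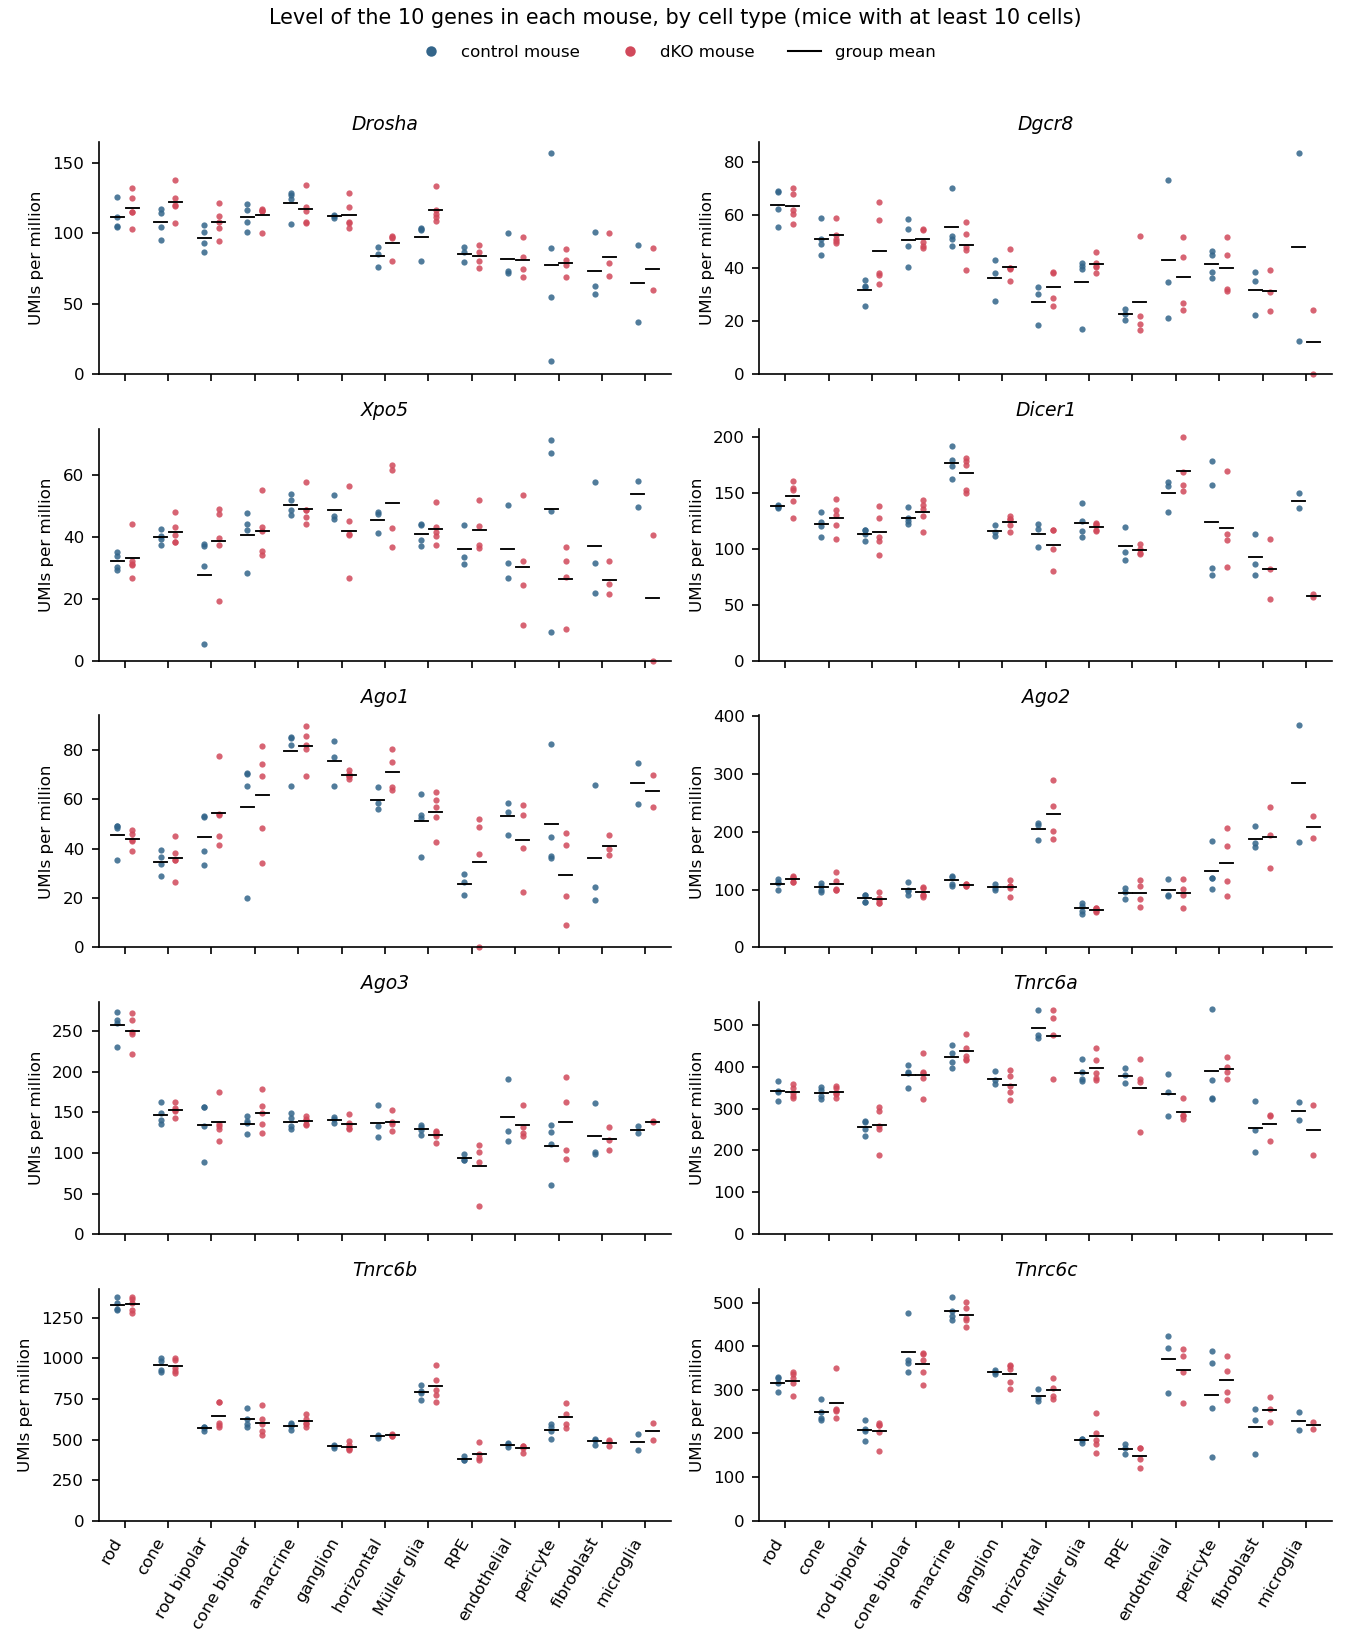
Each panel is 1 gene, with cell types along the x axis and CPM of each mouse on the y axis, control mice in blue, dKO mice in red and group means as black bars. *Tnrc6b* and *Ago3* stand highest in rods in every mouse, *Ago2* rises in horizontal cells, fibroblasts and microglia, and control and dKO points overlap in most types.

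The nuclear pair differed in its spread over types. *Drosha* (chromosome 15, 12824839 to 12935474, plus strand, GRCm39) was the flatter gene, with mean CPM from 69.5 in microglia to 119 in amacrine cells, a 1.71-fold range. Over the 9 mice its amacrine level had a low of 106, a median of 119 and a high of 134 CPM, and rods, at 103, 115 and 132 CPM, could not be set apart from it by range. *Drosha* was higher than the mean of the other types in 7 types, with log2 differences of 0.22 to 0.35 in amacrine cells, rods, cones, rod bipolar, cone bipolar and ganglion cells and Müller glia. It was lower in the 4 types outside the neural retina and RPE, where the counts are small: 31 *Drosha* UMIs in all for microglia and 88 for pericytes.

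*Dgcr8* (chromosome 16, 18069575 to 18107140, minus strand) was highest in rods, where the 9 mice had a low of 55.3, a median of 62.3 and a high of 70.1 CPM. Rods exceeded the mean of the other types by 0.77 on the log2 scale (SE 0.07, adjusted p = 3.69e-17). Cones (0.47), cone bipolar cells (0.56) and amacrine cells (0.37) were higher as well. RPE was lowest by mean, with 22.7, 24.8 and 20.3 CPM in control mice S01 to S03 and 21.9, 52.1, 19.0 and 16.6 in dKO mice S06 to S09. The high value is S07, with 3 *Dgcr8* UMIs among 57530, and all 7 mice lay below every rod value. Its RPE level differed from the mean of the other types by -0.65 (SE 0.12, adjusted p = 1.65e-06). The fitted difference of microglia was lower, at -0.75, but was not called (adjusted p = 0.0957). The rod and RPE differences kept an adjusted p below 0.05 in all 18 alternatives run. In the annotation *Dgcr8* overlaps *Gm49776* on the same strand over 6611 bases and *Trmt2a* on the opposite strand, so reads there are uncertain. Its own transcripts hold 2 miR hairpins, *Mir1306* in a coding exon and *Mir3618* in a UTR exon.

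*Xpo5* (chromosome 17, 46513650 to 46554529, plus strand) had the narrowest range of the 10 genes by mean CPM, 1.57-fold, from 31.6 CPM in fibroblasts to 49.8 in amacrine cells. Its largest called difference was in horizontal cells, 0.54 (SE 0.11, adjusted p = 1.72e-05), with a low of 36.7, a median of 47.3 and a high of 63.3 CPM over 7 mice. In rods its difference was -0.25 (adjusted p = 0.00689), a call lost in 7 of 18 alternatives, among them leaving out control mouse S01, S02 or S03.

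*Dicer1* (chromosome 12, 104654001 to 104718211, minus strand) ranged 1.97-fold and led in amacrine cells, at 150, 175 and 192 CPM for the low, median and high of 9 mice, 0.50 above the mean of the other types (SE 0.06, adjusted p = 2.05e-12). Endothelial cells came next by mean at 161 ± 20.4 CPM (SD, n = 7), and their range overlapped that of amacrine cells. Rods (0.27) and cone bipolar cells (0.22) were also higher, calls lost in 1 and 2 of 18 alternatives. The RPE level was 119, 97.3 and 90.3 CPM in the control mice and 96.3, 104, 95.6 and 99.7 in the dKO mice. The RPE difference from the other types was -0.03 (SE 0.08, adjusted p = 1), and that of *Drosha* was 0.06 (adjusted p = 0.593), so neither RNase gene was called in RPE.

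Among the Argonautes, each gene had its own leading type. *Ago1* (chromosome 4, 126328805 to 126362498, minus strand) was highest in amacrine cells, where the 9 mice had a low of 65.5, a median of 82.2 and a high of 89.5 CPM, and its log2 difference was 0.69 (SE 0.08, adjusted p = 2.4e-13). Ganglion (0.55), horizontal (0.58) and cone bipolar cells (0.47) were higher too, and rod bipolar cells were not called (0.18, adjusted p = 0.129). Cones were lower, at a median of 35.5 CPM and a log2 difference of -0.51 (SE 0.09, adjusted p = 1.02e-06). RPE had a mean of 30.8 ± 17.7 CPM (SD, n = 7) with S07, which holds 0 *Ago1* UMIs, and 35.9 ± 12.4 without it (SD, n = 6), next to a mean of 35.5 in cones. Its log2 difference was -0.38 (adjusted p = 0.00288).

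*Ago2* (chromosome 15, 72967693 to 73056784, minus strand) stood out in horizontal cells. Its CPM there was 215, 186 and 212 in control mice S01 to S03 and 202, 290, 187 and 245 in dKO mice S06 to S09. All 7 values lay above the 9 amacrine values, which ran from 106 to 124 CPM. Horizontal cells exceeded the mean of the other types by 1.15 (SE 0.07, adjusted p = 8.81e-29), against a median of -0.04 over all 16197 genes in that type. Fibroblasts were higher by 0.72 (SE 0.09, adjusted p = 2.89e-12), with a low of 137, a median of 188 and a high of 243 CPM over 6 mice.

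Microglia had *Ago2* at 183 and 385 CPM in control mice S02 and S03 and at 227 and 190 in dKO mice S06 and S08, from 100 UMIs in all. Their log2 difference was 0.57 (adjusted p = 0.00159), against a median of -0.70 over all genes in microglia, and it lost its call without control mouse S03 (0.32), with 4 markers required in the gate (0.20) and without the filter on low counts (0.48). Müller glia were at the other end, with a low of 58.5, a median of 66.0 and a high of 77.8 CPM over 9 mice and a difference of -0.85 (SE 0.07, adjusted p = 5.69e-20). The horizontal, fibroblast and Müller differences kept their calls in all 18 alternatives. In the annotation *Ago2* overlaps *Chrac1* on the opposite strand over 1711 bases.

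*Ago3* (chromosome 4, 126225496 to 126323362, minus strand), the neighbour of *Ago1* in the genome, was a rod gene by level. In rods it had a low of 222, a median of 260 and a high of 274 CPM, and the next type, cones, ended at 163 CPM. Rods exceeded the mean of the other types by 0.96 (SE 0.06, adjusted p = 1.27e-29). Below rods the order was flat: from cones (150 CPM) to fibroblasts (119 CPM) each type overlapped the next in range. By mean CPM RPE came last at 87.9 ± 24.6 (SD, n = 7), with a difference of -0.31 (adjusted p = 0.000368). By fitted difference microglia (-0.52) and pericytes (-0.40) were lower than RPE.

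The GW182 scaffolds were split in the same way. *Tnrc6a* (chromosome 7, 122723094 to 122794519, plus strand) was highest in horizontal cells, with a low of 370, a median of 477 and a high of 535 CPM over 7 mice and a difference of 0.74 (SE 0.06, adjusted p = 4.7e-19). It was the only 1 of the 10 genes called higher in RPE, by 0.34 (SE 0.07, adjusted p = 6.46e-06), and with library size in place of TMM normalization that difference was 0.09 and not called, while the median over all genes in RPE moved by -0.27. *Gm45846* overlaps *Tnrc6a* on the same strand over 45808 bases, so the 2 are uncertain.

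*Tnrc6b* (chromosome 15, 80595019 to 80825286, plus strand) had the largest type difference of the 10 genes. Rods had 1381, 1300, 1340 and 1305 CPM in the control mice and 1281, 1297, 1343, 1368 and 1381 CPM in the dKO mice. No cone value passed 1005 CPM. Rods exceeded the mean of the other types by 1.23 (SE 0.04, adjusted p = 2.03e-45), cones by 0.74 (SE 0.05, adjusted p = 3.83e-27) and Müller glia by 0.47 (SE 0.05, adjusted p = 1.88e-15). Müller glia, at 730 to 958 CPM, were clear of cone bipolar cells, but the highest rod bipolar mouse, given below, passed the lowest Müller mouse. By mean CPM RPE was lowest at 400 ± 40.6 (SD, n = 7), with a difference of -0.44 (SE 0.06, adjusted p = 2.99e-10). By fitted difference microglia (-0.70) and endothelial cells (-0.50) were lower than RPE.

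*Tnrc6c* (chromosome 11, 117544908 to 117654265, plus strand) was highest in amacrine cells, with a low of 445, a median of 469 and a high of 513 CPM and a difference of 0.80 (SE 0.06, adjusted p = 4.29e-21). Cone bipolar cells followed at 0.54 (SE 0.07, adjusted p = 1.05e-11). Müller glia (-0.59, adjusted p = 1.14e-11) and RPE (-0.58, adjusted p = 3.47e-09) were lower, as were microglia (-0.84, adjusted p = 2.28e-06), where the median over all genes is -0.70. In RPE the 3 control mice had 152, 176 and 166 CPM and the 4 dKO mice 167, 122, 167 and 141.

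**Figure D2:**
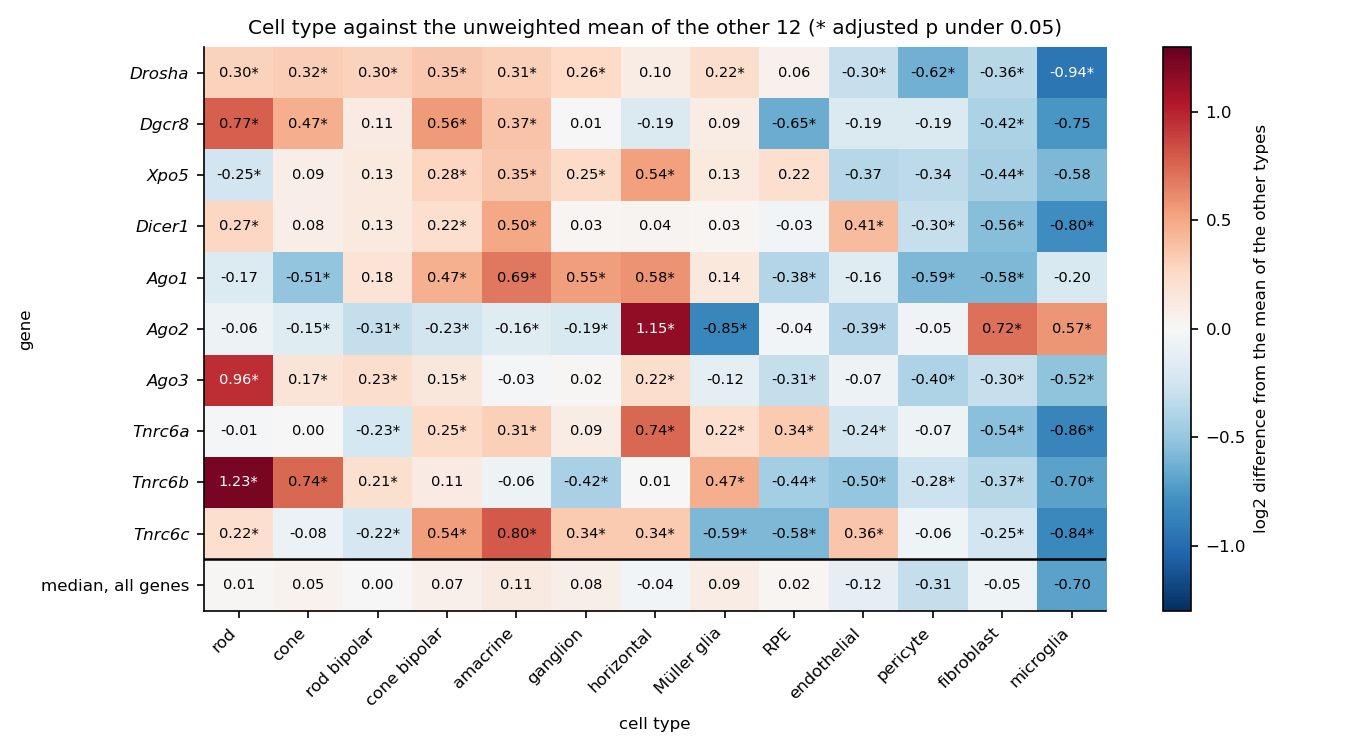
Rows are the 10 genes and, last, the median of all 16197 genes tested, columns are cell types, and colour and number give the log2 difference of a type from the mean of the other 12, with a star at an adjusted p below 0.05. *Tnrc6b* in rods (1.23) and *Ago2* in horizontal cells (1.15) are the darkest red cells, and the median over all genes is near 0 in the neural types and -0.70 in microglia.

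Read by cell type, the counts stand against the share of all genes called in the same contrast. In rods 6 of the 10 genes were higher and 1 lower (36.2% and 25.7% of all genes), and in cones 4 and 2 (37.3% and 22.1%). Amacrine cells had 7 higher and 1 lower (38.8% and 20.8%), cone bipolar cells 8 and 1 (33.6% and 19.6%), rod bipolar cells 3 and 3 (31.1% and 23.2%), and ganglion cells 4 and 2 (36.8% and 22.2%). In horizontal cells 6 genes were higher and 0 lower (27.6% and 20.6% of all genes). These 6 were *Xpo5*, *Ago1*, *Ago2*, *Ago3* (-0.0079 with library size in place of TMM), *Tnrc6a* and *Tnrc6c*, and the median over the 10 genes was 0.28 against -0.04 over all genes. Direction and call held in all 18 alternatives for *Ago1*, *Ago2* and *Tnrc6a*. For *Xpo5*, *Tnrc6c* and *Ago3* they held in 16, 15 and 11 of the 18. Müller glia had 3 higher and 2 lower (37.4% and 20.1%), close to the background.

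RPE was the other way round, with 1 gene higher and 5 lower (32.9% and 22.6% of all genes). The 5 were *Dgcr8*, *Ago1*, *Ago3*, *Tnrc6b* and *Tnrc6c*, and the median over the 10 was -0.17 against 0.02 over all genes. Fibroblasts had 1 higher and 9 lower (30.2% and 23.6%), with a median of -0.39 against -0.05. Endothelial cells had 2 and 4 (25.8% and 21.5%), with a median of -0.22 against -0.12. Pericytes had 0 and 5 (16.3% and 18.8%), with a median of -0.29 against -0.31 over all genes. By median the 10 genes lay close to the whole table there, while the part called lower was above that of all genes. Microglia had 1 and 6 (14.6% and 19.2%), with a median of -0.73 against -0.70 over all genes. In microglia too the 10 genes lay by median where the whole table lay, while the part called lower was above that of all genes. Rod markers made up 0.0160 to 0.132% of the UMIs in the other gates of single mice, against 1.03 to 2.04% in rods, and their part in these differences was not tested beyond leaving out the cells richest in them.

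The mix of Argonautes was compared within each mouse, which sets aside the total. In rods *Ago3* made up 58.4% ± 1.8 of the UMIs of *Ago1* to *Ago4* (SD, n = 9) and *Ago2* 26.5% ± 1.6. Horizontal cells had the reverse order, with *Ago2* at 48.1% ± 3.4 and *Ago3* at 30.6% ± 3.4 (SD, n = 7), and *Ago2* exceeded *Ago3* in each of the 7 mice. In fibroblasts *Ago2* took 53.0% ± 7.4 and *Ago3* 33.2% ± 4.8 (SD, n = 6). In amacrine cells *Ago1* reached 21.8% ± 1.8 against 10.2% ± 0.6 in rods (SD, n = 9), and the ranges did not meet. In RPE *Ago2* (39.3% ± 5.0) and *Ago3* (35.5% ± 6.1) overlapped (SD, n = 7). *Ago4*, which lies beside *Ago1* and *Ago3* on chromosome 4, stayed at 3.4 to 13.4% by mean in every type. Shares compare UMIs, which longer genes may collect more of, so they rank types and not proteins.

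**Figure D3:**
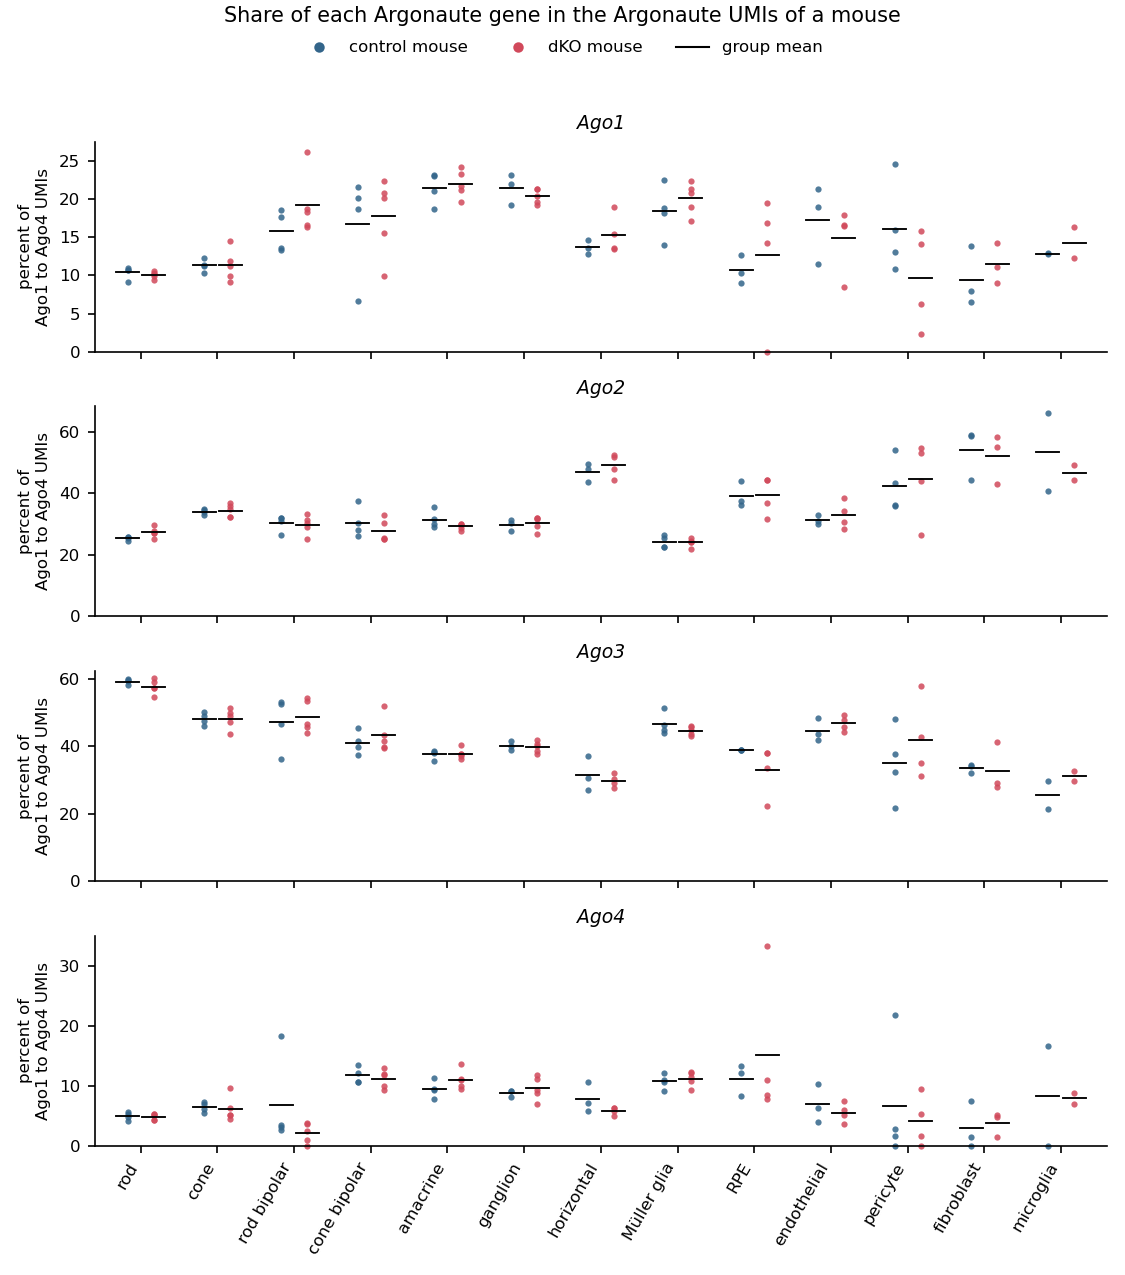
Panels show *Ago1*, *Ago2*, *Ago3* and *Ago4*, with cell types on the x axis and, on the y axis, the percent of a mouse's Argonaute UMIs that the gene takes, 1 point a mouse in blue (control) or red (dKO) with group means as bars. *Ago3* takes 54.5 to 60.4% in rods and *Ago2* 43.5 to 52.4% in horizontal cells, and the outermost RPE points are those of S07, which has 9 Argonaute UMIs there.

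The GW182 mix moved as well. *Tnrc6b* took 66.9% ± 1.0 of the *Tnrc6a* to *Tnrc6c* UMIs in rods, 61.5% ± 1.9 in cones and 58.2% ± 0.7 in Müller glia, but 39.8% ± 1.4 in amacrine cells (SD, n = 9). *Tnrc6c* took 31.6% ± 1.6 in amacrine cells and 13.6% ± 1.1 in Müller glia. *Tnrc6a* took its largest share, 39.3% ± 4.8, in RPE (SD, n = 7), a range that overlapped that of horizontal cells at 37.0% ± 2.7 (SD, n = 7), next to 17.1% ± 0.6 in rods.

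Apart from the family shares above, which are not scaled by length, levels of different genes were compared only as CPM per kb of annotated exons. In rods *Tnrc6b* was highest at 53.4, followed by *Tnrc6a* at 23.2, *Tnrc6c* at 15.5 and *Ago3* at 13.4, and *Xpo5* was lowest at 4.05. In RPE *Tnrc6a* led at 24.6 CPM per kb before *Tnrc6b* at 16.03, and *Dgcr8* was lowest at 2.26. *Drosha* stood at 12.4 in rods and 9.07 in RPE, and *Dicer1* at 8.56 and 5.99. In horizontal cells *Ago2*, at 15.5 CPM per kb, was the highest Argonaute, while *Ago3*, at 13.4, was the highest in rods. Whether intronic reads were counted is not given in the sources used here. Per kb of the whole gene, *Tnrc6b* (5.79) and *Tnrc6a* (4.77) were still first and second in rods.

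Over the mean levels of the 13 types on a log2 scale (CPM + 1), the genes most like each member were listed as a description, from 10084 genes with a mean of at least 10 CPM; the points share mice and libraries. *Tnrc6b* had the closest partner, *Sec22a* (Pearson r = 0.97), followed by *5430405H02Rik* and *Glb1l2*. *Drosha* was followed most closely by *Sugp1* (0.95), *Zfp605* and *Zer1*, and *Dgcr8* by *Dis3* (0.95), *Ppil4* and *Hinfp*. *Dicer1* was nearest to *Parg* (0.92), *Zfp790* and *Ehmt1*, and *Xpo5* to *Mpc1* (0.87), *Srcin1* and *Nudt3*. For the Argonautes the nearest genes were *Zmiz2*, *Mycbp2* and *Depdc5* for *Ago1* (0.90 for the first), *Olfml3*, *Tent5a* and *Ptpn1* for *Ago2* (0.93), and *Atp11b*, *Mecr* and *Fbxl5* for *Ago3* (0.92). *Tnrc6a* was nearest to *Nsdhl* (0.86), *Tbc1d22b* and *Dtna*, and *Tnrc6c* to *Zfp451* (0.87), *Hace1* and *Ei24*. None of these partners is itself among the 10. Between members, *Xpo5* and *Tnrc6a* were the most alike (r = 0.82), and *Drosha* and *Ago2* the least (r = -0.61).

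The second question was whether the machinery differs between dKO and control mice. In RPE, 0 of the 10 genes passed edgeR's test at an adjusted p of 0.05 (Benjamini-Hochberg over 9756 genes, of which 0, or 0%, were called). At an unadjusted p below 0.05 there was 1, *Ago1*, and 414 genes in all, and DESeq2 also called 0 of the 10. The median log2 fold change over the 10 was -0.02, against -0.01 over all genes. In bulk sums like these, fewer molecules per cell and a different mix of cells in the gate cannot be told apart.

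*Ago1* in RPE was 29.7, 21.1 and 26.4 CPM in control mice S01 to S03. In the dKO mice it was 37.7 in S06, 48.8 in S08 and 51.9 in S09, and 0 in S07. The last rests on 0 UMIs of 57530, a depth at which 3 UMIs would give 52.1 CPM, and the 3 deeper dKO mice lay above every control mouse. The fitted log2 fold change was 0.73 (95% interval 0.06 to 1.41, unadjusted p = 0.0348, adjusted p = 1, higher in 3 of 4 dKO mice than in any control mouse). Without S07 the fold change was 0.81 (unadjusted p = 0.00430, adjusted p = 0.659). S07 was the lowest dKO mouse, so leaving it out favours a rise, and the smaller p without it does not establish a rise. *Ago1* did not pass the correction in any of 17 alternatives, the lowest adjusted p being 0.622. The 17 are not all separate. Leaving out S07, leaving out S04, S05 and S07, and requiring 20 cells a mouse gave the same fit in RPE.

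The other Argonautes had estimates near 0 in RPE. *Ago2* was 84.6, 103 and 96.0 CPM in control and 117, 69.5, 106 and 84.1 in dKO mice, with a log2 fold change of 0.09 (95% interval -0.33 to 0.52). *Ago3* was 91.2, 90.9 and 99.0 CPM in control and 88.8, 34.8, 110 and 101 in dKO mice, with 0.02 (95% interval -0.47 to 0.51). In both, the groups overlapped, and S07 was the lowest mouse with 4 and 2 UMIs.

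The processing genes did not pass either. *Drosha* was 90.1, 79.9 and 86.5 CPM in control and 80.5, 86.9, 75.4 and 91.4 in dKO mice, with a log2 fold change of -0.07 (95% interval -0.45 to 0.31). For *Dgcr8*, whose values are given above, the fold change was -0.14 (95% interval -0.68 to 0.41), and for *Dicer1* it was -0.08 (95% interval -0.46 to 0.30). *Xpo5* was 44.0, 31.2 and 33.7 CPM in control and 43.5, 52.1, 37.4 and 36.4 in dKO mice, with 0.11 (95% interval -0.35 to 0.57). The intervals of these 4 genes leave out a 2-fold change in either direction, a log2 change of 1.

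*Tnrc6a* was 380, 397 and 361 CPM in control and 364, 243, 370 and 418 in dKO mice, with a log2 fold change of -0.08 (95% interval -0.57 to 0.40). *Tnrc6b* was 376, 398 and 371 CPM in control and 374, 487, 385 and 408 in dKO mice, with 0.04 (95% interval -0.34 to 0.42). *Tnrc6c* had -0.10 (95% interval -0.49 to 0.30). For all 3 scaffolds the groups overlapped.

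**Figure D4:**
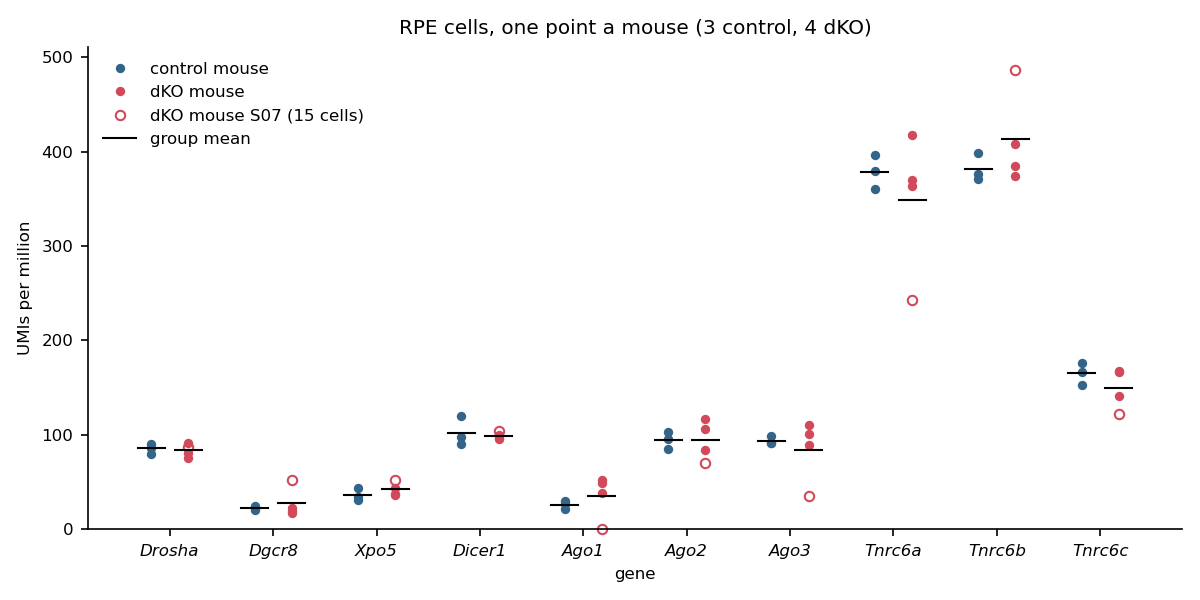
CPM of each gene in RPE cells, with 3 control mice in blue, 4 dKO mice in red (S07, with 15 cells, as an open circle) and group means as bars. *Ago1* in S06, S08 and S09 (37.7 to 51.9 CPM) lies above the controls (21.1 to 29.7), and the open circle is the highest or lowest dKO value in 9 of the 10 genes.

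Outside RPE no estimate was as large as that of *Ago1* in RPE. The contrast was made in 12 types, which gave 117 tests of a member, since *Dgcr8*, *Xpo5* and *Ago1* did not pass the filter on low counts in pericytes, and 0 were called. The 1 test with an unadjusted p below 0.05, *Ago1* in RPE, is 0.855% of the 117. Over all genes 0, or 0%, were called in rods, cones, Müller glia, rod bipolar, cone bipolar, amacrine and horizontal cells, pericytes, endothelial cells and fibroblasts. In ganglion cells 1 of 12302 genes was called (0.00813%), *Gm6999*, which belongs to none of the lists. Outside RPE the largest member estimate was -0.44 for *Xpo5* in fibroblasts (95% interval -1.31 to 0.43).

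In rods, the deepest type, the 10 estimates ran from -0.08 (*Ago1*) to 0.07 (*Ago2*), and all 95% intervals lay between -0.31 and 0.29. In cones they ran from -0.03 to 0.14, and in amacrine cells from -0.08 to 0.07. *Drosha* in Müller glia was 104, 102, 103 and 80.5 CPM in control and 133, 114, 117, 108 and 111 in dKO mice, so that the groups did not overlap. Its log2 fold change was 0.20 (95% interval -0.04 to 0.45, unadjusted p = 0.0983, adjusted p = 1). *Tnrc6b* in rod bipolar cells did not overlap either, with 550 to 576 CPM in 4 control and 577 to 734 CPM in 5 dKO mice, and 0.17 on the log2 scale (unadjusted p = 0.146, adjusted p = 1). The nearest values of the groups there, 576 and 577 CPM, almost met, and dKO mice S05 and S07 entered with 15 and 31 cells. How many of all genes separate the groups in this way was not counted. In microglia, with 2 mice a group, no test was made. *Dicer1* there was 150 and 137 CPM in control and 56.8 and 59.9 in dKO mice, from 18, 11, 7 and 6 UMIs. *Xpo5* was lower and *Ago3* higher in both dKO mice than in both controls, and the remaining members overlapped. So few mice often separate without any effect, and the share of all genes that do so was not counted.

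**Figure D5:**
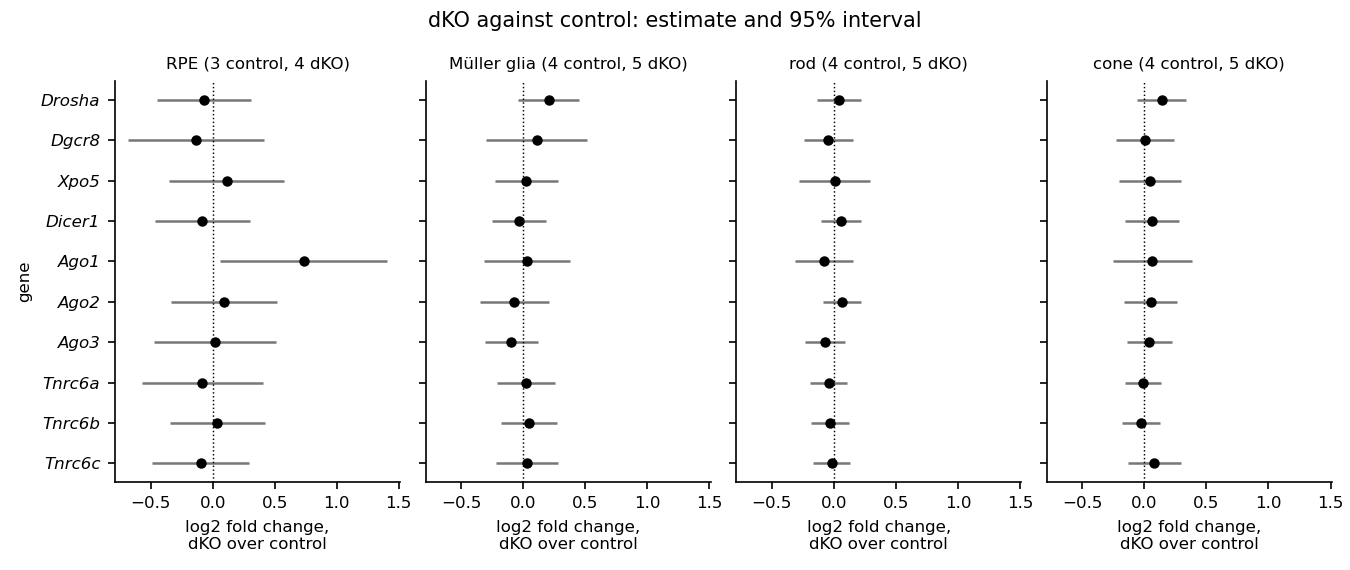
For RPE, Müller glia, rods and cones, points give the log2 fold change of dKO over control on the x axis and lines the 95% interval, with genes on the y axis. The interval of *Ago1* in RPE (0.06 to 1.41) is the only interval plotted that does not reach 0, before correction over genes.

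Whether the dKO difference in RPE departs from that in other types was tested directly, with limma on the per-mouse difference in log2 CPM (prior count 1) between RPE and Müller glia or rods in 3 control and 4 dKO mice. Of the 10 genes 0 were called in either comparison, and over all genes 0 of 9439 and 0 of 9251 were called, with 159 and 153 at an unadjusted p below 0.05. *Drosha* had the lowest p against Müller glia, with a difference of -0.23 (95% interval -0.75 to 0.30, adjusted p = 0.885). For *Ago1* the difference was -0.63 against Müller glia (95% interval -4.19 to 2.93). Its sign is opposite to that of the edgeR fold change of *Ago1* in RPE (0.73). S07 holds 0 *Ago1* UMIs in RPE, and the interval spans several log2 units in either direction.

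Family mixes were compared between the groups by exact permutation tests, two-sided, over 84 pairs of gene and type. The smallest two-sided p these numbers of mice allow is 0.0159 in types with 4 against 5 mice, 0.0571 in RPE and 0.1 in fibroblasts, and no single pair could pass the adjustment, so these tests say nothing of stability. *Ago3* in RPE had the lowest exact p, 0.0571, at 38.9% ± 0.12 in control (SD, n = 3) and 32.9% ± 7.4 in dKO mice (SD, n = 4). Without S07, whose share rests on 9 Argonaute UMIs, the dKO mean was 36.5% ± 2.5 (SD, n = 3). The share of rod markers in RPE was 0.0248% ± 0.0025 in control and 0.0496% ± 0.055 in dKO mice (n = 3 and 4, two-sided exact permutation p = 0.971), with the high of 0.132% in dKO mouse S07. In fibroblasts the panels of all other types together made up 0.330% ± 0.018 in control and 0.300% ± 0.0065 in dKO mice (SD, n = 3 each), groups that did not overlap (exact permutation p = 0.1, the smallest possible).

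A further 59 genes of the pathway were counted in 6 lists: microprocessor cofactors, export and Dicer partners, Argonaute loading and partners, deadenylation, decapping and decay, and miR modification and turnover. Between dKO and control, 0 of them were called in any type. In RPE 53 could be tested, with log2 fold changes from -0.57 to 0.49 and a median of -0.07, and 1 had an unadjusted p below 0.05. *Ago4* was 28.2, 19.3 and 33.7 CPM in control and 20.5, 52.1, 24.7 and 29.1 in dKO RPE, a log2 fold change of -0.15 (95% interval -0.75 to 0.45). *Ddx6*, the helicase of decapping complexes, had 0.09 (95% interval -0.29 to 0.48). *Tarbp2*, a partner of DICER1, had 0 to 18 UMIs a mouse in RPE and did not pass the filter, while in rods it had -0.23 (95% interval -0.64 to 0.18).

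Between types these lists were not uniform. In RPE, where 5 of the 10 genes were lower, 8 of 9 microprocessor cofactors were higher and 0 lower, with a median log2 difference of 0.42, and 6 of 9 Argonaute loading genes were higher and 1 lower (32.9% and 22.6% of all genes). In rods 12 of 14 deadenylation genes were higher and 0 lower, with a median of 0.44 against 0.01 over all genes (36.2% and 25.7% of all genes called). In fibroblasts 8 of 14 deadenylation genes were lower and 2 higher (23.6% and 30.2% of all genes). *Ago4* was highest by difference in cone bipolar cells (0.91, SE 0.12, adjusted p = 2.57e-10) and lowest in rod bipolar cells (-1.21, SE 0.18, adjusted p = 1.33e-08), unlike *Ago1* and *Ago3* beside it in the genome. *Ddx6* was highest in endothelial cells (0.67, adjusted p = 1.39e-14), and *Tarbp2* in rods (0.74, adjusted p = 1.38e-05).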

How the data were processed

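Retina and RPE cells of 4 control and 5 dKO mice were profiled with Parse Evercode single-cell RNA sequencing. The values used are UMI counts per gene and cell, deposited by the authors as a matrix over all 9 mice. Per the study's methods, reads were processed with split-pipe on the GRCm39 reference, and cells with few genes and genes in few cells were removed. The submitters' processing notes name R 4.2.2 and Seurat 4.3.0. Doublets and free RNA were not removed here.

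Cells were gated by 6 markers a type (at least 3 detected, and a summed share above a limit set after the score distributions were seen), and raw counts were summed per mouse and type. Groups come from the labels. No type was assigned from a group or an outcome. The members and lists were chosen with earlier results of these data known. Named were every member, other pathway genes with an adjusted p below 0.05 between dKO and control or, as there were 0, *Ago4*, *Tarbp2* and *Ddx6*, and the 3 genes most like each member.

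Counts were tested with edgeR 4.0.16 (quasi-likelihood, TMM, low counts filtered) in R 4.3.3. Its p-values carry a Poisson bound, so a p can be larger than its interval implies. limma 3.58.1 tested differences between types in the dKO effect, and scipy 1.17.1 (Python 3.11.15) gave exact permutation tests. Scripts were tested on simulated data. Alternatives were DESeq2 1.42.0, library size, no filter, other gates, left-out mice or cells and designs without the block. Floors (3 counts) cover counting error only, and the intervals of fold changes include the spread between mice. Depth ran from 15079143 to 66528160 UMIs a mouse. RPE had 57530 to 2783107.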

Additional observations from a re-analysis of the deposited data

Results flagged for a closer look

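In groups of 4 or 5 mice, a gene was looked at again where the highest or lowest mouse was far from the nearest other for the range of its group (Dixon's test). Of 180 groups examined 11 met this, and chance alone gives about 1 in 20, or 9.0 here. Control mouse S04 is the mouse in 6 of the 11. In Müller glia it had *Drosha* at 80.5 CPM, with the other controls at 102 to 104, and *Dgcr8* at 17.1 CPM from 7 UMIs, with the others at 39.8 to 42.1. The control and dKO values of *Drosha* in Müller glia did not overlap with S04 included, so leaving out this lowest control could not change that. In amacrine cells S04 had *Dgcr8* at 70.1 CPM (others 48.4 to 52.0) and *Ago1* at 65.5 CPM (others 82.2 to 85.2). Its *Ago1* was also lowest in rods, at 35.5 CPM from 596 UMIs (others 48.2 to 49.3), and in cone bipolar cells, at 20.2 CPM from 5 UMIs (others 65.6 to 70.8).

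In dKO mouse S08 *Drosha* was lowest in cone bipolar cells, at 100.2 CPM with the others at 116 to 117, and in horizontal cells, at 80.2 CPM with the others at 96.8 to 98.4. In RPE, dKO mouse S07 had *Dgcr8* at 52.1 CPM from 3 UMIs, with the others at 16.6 to 21.9. Control mouse S02 had *Tnrc6b* in rod bipolar cells at 550.2 CPM, with the others at 574 to 576. In cones, dKO mouse S05 had *Tnrc6c* at 351 CPM from 292 UMIs, with the others at 235 to 256.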

How the results depend on the processing

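Between cell types, 46 pairs of gene and type were higher and 41 lower. With control mice only, which keeps fewer mice, these were 30 and 25. Leaving out 1 mouse gave 42 to 48 higher and 35 to 41 lower, and leaving out S04, S05 and S07, an alternative chosen after the data were seen, gave 46 and 39. Of the 87 called pairs 43 kept direction and call in all 18 alternatives and 44 lost the call in at least 1. With library size in place of TMM, 2 changed sign: *Ago3* in horizontal cells (-0.0079) and *Tnrc6b* in rod bipolar cells (-0.0019). That scaling moved the median of all genes by -0.23 and -0.20 in these types, and DESeq2's moved that of rods by -0.34.

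No paired analysis was possible because no number in the labels ties a control mouse to a dKO mouse. Between types the mouse was the block, and with no replicate block 45 pairs were higher and 42 lower.

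Between dKO and control, 0 members were called in any of 218 fits, main and alternative, leaving out a mouse included (0 to 0), and the lowest adjusted p was 0.622. Some of these fits repeat each other, such as leaving out S07 and leaving out S04, S05 and S07 in RPE. Over all genes, no filter on low counts gave 82 calls in RPE, 52 in cones, 58 in rod bipolar, 27 in cone bipolar, 133 in ganglion and 80 in horizontal cells, 13 in pericytes, 180 in endothelial cells and 53 in fibroblasts. DESeq2 gave 2 in ganglion cells and 1 each in rods, horizontal cells and fibroblasts, and leaving out the top 5% of cells by UMIs gave 3 in horizontal cells. Depth limits the values of microglia and pericytes and of S07 in RPE, where some members have under 10 UMIs a mouse.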

Other observations

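*Lin28b*, which encodes an RNA-binding protein known to block the maturation of let-7 miRs, was chosen for this paragraph after its values were seen. It belongs to the list of miR modification and turnover genes. In ganglion cells it lay between 69.9 and 82.9 CPM in all 8 mice used (76.7 ± 4.69, SD). Amacrine cells had 13.5 ± 2.23 CPM (SD, n = 9) and horizontal cells 11.3 ± 5.77 (SD, n = 7), and cone bipolar cells had 5.82 by mean. Microglia, pericytes, endothelial cells and fibroblasts held 1 *Lin28b* UMI each over all mice. Between dKO and control mice the log2 fold change in ganglion cells was -0.10 (edgeR unadjusted p = 0.308), which was not called.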
